A study of Mus musculus with 2 samples.

Results

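The nuclear genes for the respiratory chain and the ATP synthase were examined by DNase-seq in the urinary bladder of 2 females, each 36 days old, of the mouse strain B6CASTF1/J, with no treatment named in the labels. B6CASTF1/J mice are first-generation hybrids that carry a B6 and a CAST genome, the B6 line being a laboratory inbred and CAST a wild-derived one, and the deposited coordinates are those of mm10, per the labels. The labels give biological replicate 1 and biological replicate 2, with 1 library each, from separate biosamples with animal numbers of their own but under 1 shared donor record, and they are taken here as 2 animals. Both form 1 group without a control and no test was possible. In this assay DNase I cuts the DNA of isolated nuclei and the sites of cutting are read by sequencing. Open DNA yields many cuts and a protein lying on open DNA leaves a short protected stretch, called a footprint. Members were the protein-coding autosomal genes of GENCODE M21 with the symbols of complex I subunits (Ndufa, Ndufb, Ndufc, Ndufs or Ndufv with a number), complex II (Sdha to Sdhd), complex III (Uqcr), complex IV (Cox4 to Cox8) and complex V, the ATP synthase (Atp5). This rule gave 82 gene models with 81 symbols, since Atp5o is annotated as 2 models, out of 20807 autosomal protein-coding genes. Complex I had 35 members, complex II 4, complex III 8, complex IV 17 and complex V 18. The 3 X-linked genes that carry such symbols (Cox7b, Ndufa1 and Ndufb11) were left out.

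The respiratory chain passes electrons from NADH and succinate to oxygen through complexes I to IV, and complex V uses the proton gradient so built to make ATP. A few subunits are encoded in the mitochondrial genome, and all subunits described here are encoded in the nucleus and imported. Nuclear respiratory factor 1 (NRF1) and the ETS factor GABP, also called nuclear respiratory factor 2, are known to bind promoters of many of these genes and of genes for mitochondrial transcription. Several complex IV subunits exist as a ubiquitous isoform and an isoform restricted to heart and skeletal muscle, lung or testis. The bladder holds urothelium and a smooth muscle wall, and markers of both had peaks. A peak at the 5′ end in both animals was found at 7 of 7 urothelial genes (summed height 17.7 and 10.3 in replicates 1 and 2). The same held for 6 of 6 smooth muscle genes (7.07 and 5.84), against 60.9% of all autosomal protein-coding genes. Each of these marker heights lay below the median over all genes with a peak (4.90 and 3.61). Smooth muscle heights ran from 0.340 and 0.569 at Actg2 to 2.82 and 1.48 at Myh11. Of 3 liver genes none had a peak in both animals (0.355 and 0), and of 4 germ cell genes 1 had (0.474 and 0.484), with Ddx4, Tnp1 and Dazl at 0 at the 5′ end, although Dazl had 5.57 and 3.81 at another annotated start. The tissue is a mixture, so a low peak may mean that few cells are open there or that many are weakly open, which cannot be told apart.

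The short DNA stretches below carry the matches that the results on NRF1 turn on. The letters searched were GCGCANGCG, the core of the NRF1 motif with N for any base, on both strands within 500 bp of the most upstream annotated start of each gene, here called the 5′ end. Each stretch holds a match that lay under a footprint in both animals, taken from the 2 members per complex with the highest mean peak among those with such a match. They are read 5′ to 3′ on the strand of the gene, from GRCm38 (mm10), and capitals mark 1 match, read on either strand.
Ndufa8 (chr2:36049349-36049377, minus strand): tagagcagtgCGCTTGCGCgtcgctggag
Ndufb7 (chr8:83566922-83566970, plus strand): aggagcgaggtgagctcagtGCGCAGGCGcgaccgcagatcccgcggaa
Sdha (chr13:74350277-74350305, minus strand): ggggcgtgttGCGCAGGCGcagaatcttc
Sdhd (chr9:50603910-50603938, minus strand): tcgctggggtGCGCACGCGcggtggcagc
Uqcrc1 (chr9:108936668-108936696, plus strand): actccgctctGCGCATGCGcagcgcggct
Uqcr11 (chr10:80406808-80406836, minus strand): atcgccttcaCGCATGCGCtatacgtctg
Cox6a1 (chr5:115349047-115349095, minus strand): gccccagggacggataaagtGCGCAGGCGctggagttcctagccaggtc
Cox6c (chr15:35938170-35938198, minus strand): atcgactcttGCGCATGCGtgctgctgga
Atp5c1 (chr2:10080431-10080459, minus strand): ctgagctcccGCGCACGCGcactgagtcc
Atp5mpl (chr12:111967043-111967091, minus strand): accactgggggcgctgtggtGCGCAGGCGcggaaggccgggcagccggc

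The ETS core searched in the same way was CCGGAAG, whose reverse complement reads CTTCCGG. Stretches are shown for 1 or 2 members per complex with a footprinted match, again those with the highest mean peak, except that Atp5l stands in for Atp5a1 in complex V. In 7 of these 8 members the match shown was on the strand opposite to the gene, and Sdhb was the exception. Of all 33 ETS matches at members, 10 were on the strand of the gene, and the share over all genes is not given.
Ndufs1 (chr1:63176821-63176849, minus strand): ggcctcggctaCTTCCGGcggaactgcag
Ndufs8 (chr19:3912742-3912770, minus strand): ttaggctccgcCTTCCGGttgaaccgcat
Sdhb (chr4:140961266-140961294, plus strand): gctcggagaaaCCGGAAGcggccttccac
Uqcrh (chr4:116075063-116075091, minus strand): agtatgccgcaCTTCCGGccaggtcgccg
Cox6a1 (chr5:115348957-115348985, minus strand): ccccatttccgCTTCCGGcgcgccggtgt
Cox8a (chr19:7217567-7217595, minus strand): cagcgccggaaCTTCCGGctggttcggcc
Atp5k (chr5:108434370-108434398, minus strand): cctcagttgagCTTCCGGcgcgaaggtca
Atp5l (chr9:44920701-44920729, minus strand): tgccgcgggtcCTTCCGGgggtgacattc

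A peak touched the window of 500 bp on either side of the 5′ end in both animals for 74 of 82 members (90.2%), against 60.9% of all autosomal protein-coding genes. In replicate 1 the members with a peak were 75 (91.5%) and in replicate 2 they were 74 (90.2%), a mean of 90.9% ± 0.863 (SD, n = 2). Complex II was open at 4 of 4 genes, complex III at 8 of 8, complex I at 34 of 35, complex V at 16 of 18 and complex IV at 12 of 17. With any annotated start of a protein-coding transcript in place of the most upstream one, 75 of 82 members were open in both animals, against 65.7% of all genes. Mitochondrial ribosomal protein genes were open at 74 of 78 (94.9%) and cytosolic ribosomal protein genes at 68 of 72 (94.4%).

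Where the members were open, the peaks were high. The authors give each peak a height, a signal whose scaling no source used here states, so heights were compared within an animal. The median height over open members was 7.86 in replicate 1 and 5.15 in replicate 2, a mean of 6.51 ± 1.92 (SD, n = 2), against 4.90 and 3.61 over all genes with a peak. In both animals the median member ranked above most open genes, at percentile 68.5 in replicate 1 and 68.9 in replicate 2. Of 74 members open in both animals, 54 (73.0%) stood in the higher 50% of open genes in both, against 46.5% of all open genes. Mitochondrial ribosomal protein genes had lower medians (6.02 and 4.18) and cytosolic ribosomal protein genes higher ones (8.63 and 5.55), with 39 of 74 and 57 of 68 open genes in the higher 50% in both animals. The highest member reached 16.5 in replicate 1 and 9.73 in replicate 2, against 45.7 and 26.4 for the highest gene of all.

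**Figure D1:**
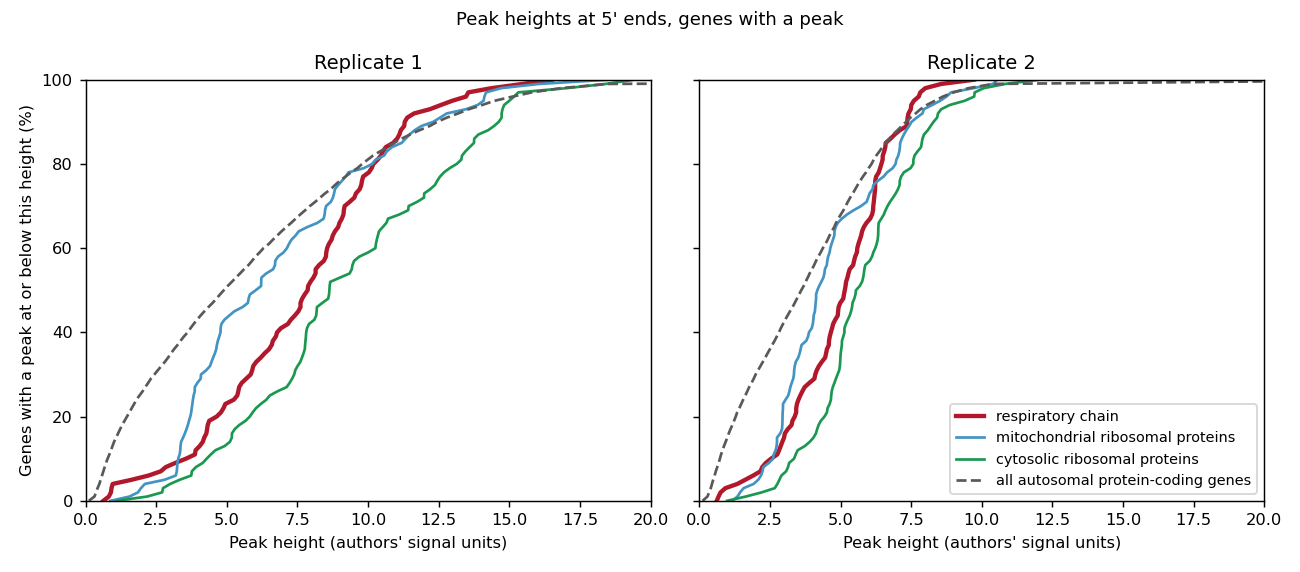
Cumulative share of genes (y axis, percent) with a peak at or below a given height (x axis, authors' signal units) in replicate 1 and replicate 2, for the respiratory chain, mitochondrial ribosomal proteins, cytosolic ribosomal proteins and all autosomal protein-coding genes, counting only genes with a peak in that animal. The respiratory chain curve lies right of that of all genes over most of its course, with medians of 7.86 against 4.90 and 5.15 against 3.61, and the curves cross near the top. The axis ends at 20.

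Complex I, NADH dehydrogenase, is the entry for electrons from NADH, and its open members ranged from 0.892 to 16.5 in replicate 1 and from 0.705 to 9.73 in replicate 2, with medians of 7.72 and 5.53. The highest peaks were at Ndufa7 and Ndufv3, both accessory subunits. Ndufa7 (chr17:33824572-33838317, plus strand) had a peak of 15.1 in replicate 1 and 9.73 in replicate 2, a mean of 12.4 ± 3.80 (SD, n = 2). Ndufv3, which lies at the NADH-oxidizing end of the complex, had 16.5 and 7.84. The peak of Ndufa7 spanned −131 to 68 bp around the 5′ end in replicate 1, with downstream positions positive, and the gene shares this stretch with Rps28 on the opposite strand, whose 5′ end is 10 bp away. Among the 7 core subunits, which carry the flavin, the iron-sulfur clusters and the quinone site, the NADH-binding Ndufv1 had 11.3 and 5.10 and the iron-sulfur subunit Ndufs1 had 11.2 and 6.49. The medians were 6.58 and 4.90 over the core and 7.79 and 5.60 over open accessory subunits, and the ranges overlapped. Low peaks were found at Ndufc2, an accessory subunit, with 2.86 and 2.16, and at Ndufa4l2, given with its paralog among the isoform pairs.

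Complex II, succinate dehydrogenase, links the citric acid cycle to the chain and is wholly nuclear. Sdhc, a membrane anchor, had 9.50 in replicate 1 and 6.36 in replicate 2. Sdhb, the iron-sulfur subunit, had 10.4 and 5.17, and Sdha, the flavoprotein, had 9.14 and 5.89. Sdhd, the other anchor, was the lowest with 7.15 and 4.94. All 4 genes stood in the higher 50% of open genes in both animals, and none lacked a footprint in either animal.

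Complex III, the cytochrome bc1 complex, was open at every nuclear member counted here. Uqcrq, a small subunit, had 13.6 in replicate 1 and 7.39 in replicate 2, and its peak lay upstream, from −429 to −70 bp of the 5′ end in replicate 1. Uqcrfs1, the Rieske iron-sulfur protein, had 11.6 and 7.50. The core proteins differed: Uqcrc1 had 8.15 and 4.60, while Uqcrc2 had 4.19 and 3.43, below the median of all open genes in both animals. The carrier Cycs, cytochrome c, which takes electrons from complex III to complex IV, had 15.6 and 7.25, and its testis isoform Cyct had no peak in either animal. Cyc1 and Ndufab1, whose symbols the rule for members does not take in, had 4.11 and 3.39 and 3.43 and 2.94 respectively. Both lay below the median of all open genes in both animals.

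**Figure D2:**
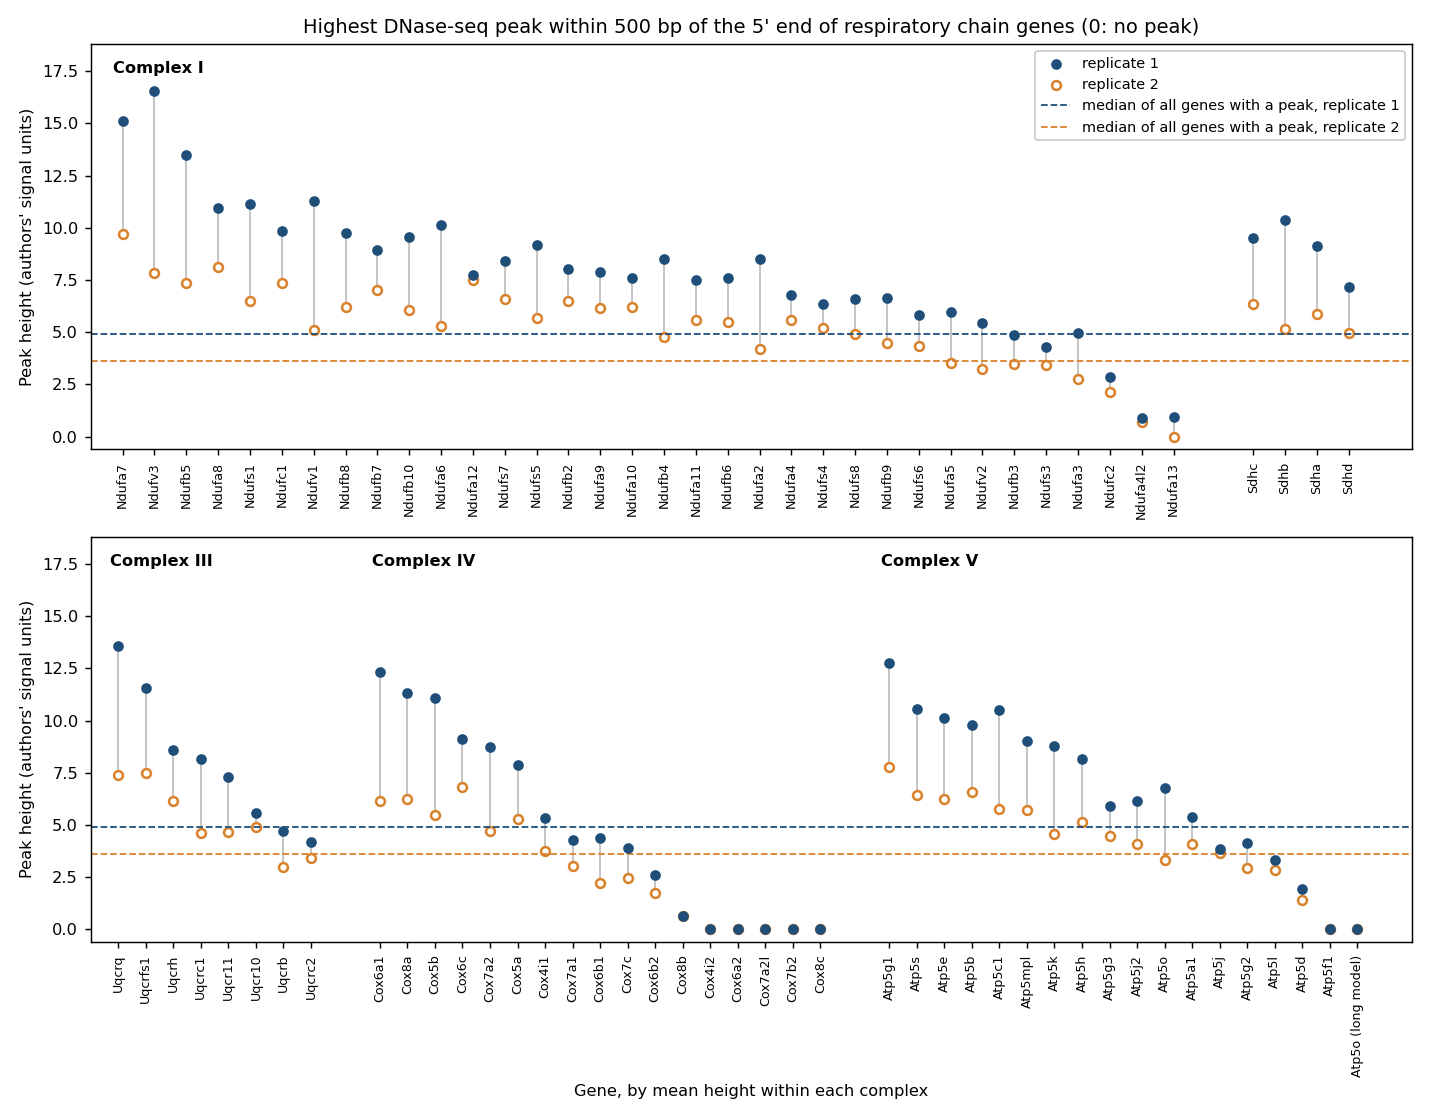
Height of the highest peak within 500 bp of the 5′ end (y axis, authors' signal units) for each of 81 gene models, ordered within complexes I to V by mean height. Filled points are replicate 1, open points replicate 2, grey lines join them, and dashed lines are the medians over all genes with a peak (4.90 and 3.61); 8 members reach 0 in at least 1 animal and 5 of these are in complex IV.

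Complex IV, cytochrome c oxidase, held the largest share of members without a peak. Its highest members were the ubiquitous subunits Cox6a1, with 12.3 in replicate 1 and 6.15 in replicate 2, and Cox8a, with 11.3 and 6.23. Cox5b had 11.1 and 5.49 and Cox5a had 7.89 and 5.27. The tissue-restricted isoforms made up much of the low end. Of 8 restricted isoforms 4 were open in both animals, with medians of 1.76 and 1.23 and none in the higher 50% of open genes. Of 6 ubiquitous partners 6 were open, with medians of 7.76 and 5.14. Without the 8 restricted isoforms, 70 of 74 members (94.6%) were open and the medians were 8.04 and 5.23.

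In each of the 7 pairs that could be formed, the restricted isoform was lower than its partner in both animals. Cox6a2, the heart and skeletal muscle form, had no peak in either animal, and the nearest peak lay 1914 bp upstream with 1.17 and 1.06. Cox8b, another muscle form, had 0.632 and 0.620, against 11.3 and 6.23 for Cox8a. Cox7a1, expressed in heart, skeletal muscle and brown fat, was the highest of the restricted isoforms with 4.30 and 3.04, against 8.72 and 4.71 for Cox7a2. Cox6b2, the testis form, had 2.62 and 1.76, against 4.36 and 2.24 for Cox6b1, so this pair differed least. Cox4i2, the lung form, had no peak, and Cox4i1 had 5.35 and 3.76. The testis forms Cox7b2 and Cox8c had none either, and the partner of Cox7b2 is X-linked. Ndufa4l2, a paralog of Ndufa4 known to be induced by hypoxia, had 0.892 and 0.705, against 6.80 and 5.58 for Ndufa4, which bears a complex I symbol but is known to belong to complex IV.

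Markers of the tissues that use the restricted forms were given by the same measure. Of 9 striated muscle genes 4 had a peak in both animals (summed height 5.50 and 4.04), with Ckm at 2.45 and 1.56 and Actn3 at 1.80 and 1.29, while Myh1, Myh2, Myh6, Tnnt2 and Myod1 were at 0. Of 4 pericyte genes 4 were open (5.91 and 3.87), and of 2 brown fat genes 2 (2.90 and 1.68), with Ucp1 at 0.695 and 0.399. Their part in the heights of Cox7a1 and Cox8b was not tested.

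The 150 bases before the 5′ end of Cox6a2 and of Cox6a1 are shown for the pair with the largest difference in height in replicate 1. Of 6 ubiquitous partners Cox6a1 alone had an NRF1 match in its window, so the other pairs did not differ in this way. Capitals mark matches to the NRF1 core, of which Cox6a1 had 3 on both strands, 2 of them overlapping within 1 palindromic stretch, and Cox6a2 none.
Cox6a2 (chr7:128206388-128206537, minus strand): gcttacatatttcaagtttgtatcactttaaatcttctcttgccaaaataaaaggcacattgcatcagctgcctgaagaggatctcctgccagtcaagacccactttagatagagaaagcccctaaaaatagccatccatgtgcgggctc
Cox6a1 (chr5:115348982-115349131, minus strand): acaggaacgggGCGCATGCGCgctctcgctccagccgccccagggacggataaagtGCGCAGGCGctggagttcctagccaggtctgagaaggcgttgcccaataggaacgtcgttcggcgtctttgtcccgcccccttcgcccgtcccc

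**Figure D3:**
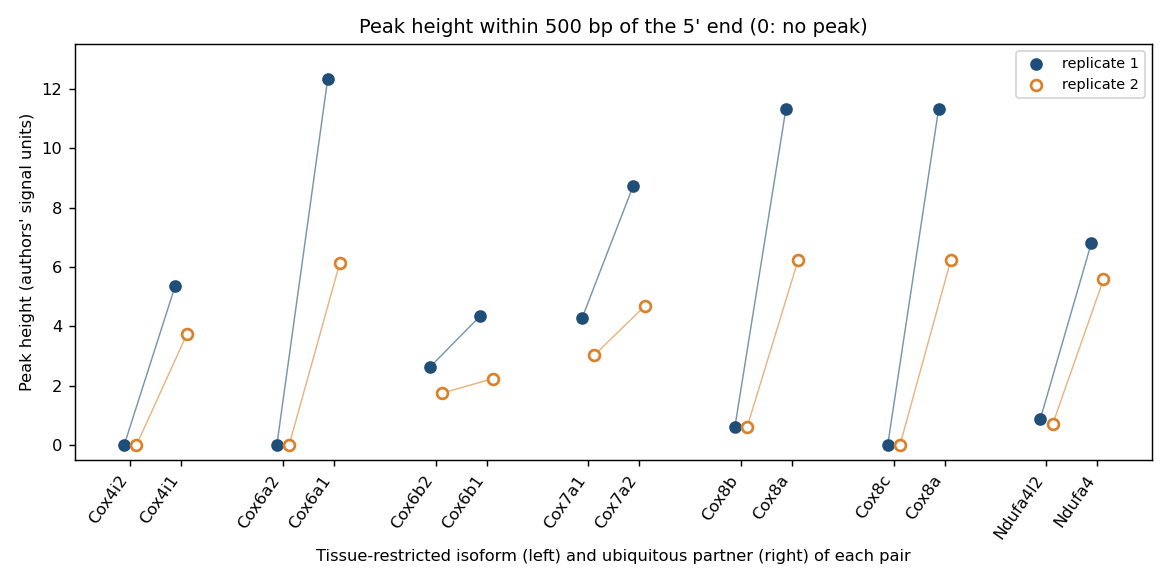
Height of the highest peak within 500 bp of the 5′ end (y axis, authors' signal units) for 7 pairs of a tissue-restricted isoform (left) and its ubiquitous partner (right), with filled points for replicate 1 and open points for replicate 2. The restricted isoform is lower in both animals in each pair, from Cox6b2 with 2.62 and 1.76 against Cox6b1 with 4.36 and 2.24 to Cox6a2 with no peak against Cox6a1 with 12.3 and 6.15.

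Complex V, the ATP synthase, consists of a catalytic head and a membrane-bound rotor and stator. Atp5g1, a gene for the c subunit of the rotor ring, had the highest peak, with 12.8 in replicate 1 and 7.76 in replicate 2, and its peak spanned −450 to −11 bp in replicate 1. The other c subunit genes were lower: Atp5g3 had 5.91 and 4.49, and Atp5g2 had 4.13 and 2.92, from a peak that spanned 352 to 531 bp downstream in replicate 1. At another annotated start, however, Atp5g2 had 11.4 and 6.07, close to Atp5g1. Of the head subunits, the gamma subunit Atp5c1 had 10.5 and 5.78, the catalytic beta subunit Atp5b had 9.77 and 6.59, and the alpha subunit Atp5a1 had 5.40 and 4.11. Atp5s, known as the coupling factor B gene, had 10.6 and 6.42.

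A total of 8 members lacked a peak in at least 1 animal, and 4 of these are not restricted isoforms. In 3 of the 4 a peak lay near but outside the window or at another annotated start. For Atp5f1, the b subunit of the ATP synthase stator, the nearest peak began 599 bp downstream in replicate 1 (8.74) and 619 bp downstream in replicate 2 (5.98). For Cox7a2l, a factor of supercomplex assembly, a start 3000 bp downstream had 5.96 and 4.07. For Ndufa13 a peak of 0.963 lay in the window in replicate 1, and the nearest in replicate 2 was 563 bp upstream with 7.30. Every base of the window around Ndufa13 passed a false discovery rate of 0.05 for its cut rate in both animals, against 453 and 519 bp at Atp5f1 and none at Cox7a2l. The long model of Atp5o begins 3′ of the other model, and its nearest peak, 4539 bp upstream, was that of the short Atp5o model (6.76 and 3.30).

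Atp5d, the delta subunit of the ATP synthase, was counted as open only through a peak at the margin of the window. It had 1.93 and 1.39 from a peak that spanned 489 to 748 bp downstream in replicate 1, and its annotated start 2825 bp downstream had 9.32 and 4.65. The height at the most upstream start was thus below that at the inner start in both animals.

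Replicate 2 had lower heights than replicate 1 at all 74 members open in both animals, as at 89.3% of all open genes, and how heights were scaled is not stated. The median log2 ratio of replicate 2 over replicate 1 was −0.54 over all genes open in both animals, and after this median was subtracted the members' median was −0.04, with quartiles of −0.23 and 0.13. The SD of the log2 ratio was 0.26 over members and 0.39 over all open genes. Within 0.5 of the median of all genes lay 71 of 74 members (95.9%), against 83.3% of all open genes. The 3 outside were Ndufv1 (−0.61) and Ndufv3 (−0.54), lower in replicate 2, and Cox8b (0.51), a peak near the lowest heights. Ndufa12, an accessory subunit, had 7.72 and 7.51 and so nearly equal heights, whereas Atp5o had 6.76 and 3.30. Spearman's rho between the heights of the animals was 0.87 over 74 members and 0.96 over 12666 genes, and the members span a narrower range of heights.

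Peaks sat on the 5′ end. The median centre of the highest peak was at −8.5 bp in replicate 1 and −1.5 bp in replicate 2, against −23.5 and −12.5 bp over all genes. The peak covered the 5′ end itself in 80.0% and 78.4% of open members, against 67.6% and 70.6% of open genes. Median peak widths were 200 and 260 bp in members and 220 and 280 bp over all genes.

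Footprints touched the window in both animals at 70 of 82 members (85.4%), against 58.5% of all genes. These counts were close to those of genes with a peak in both animals. Of members 70 had a footprint and 74 a peak, and over all genes 12163 and 12666. The share with a footprint therefore does not set members apart from open genes in general. Footprints numbered 461 in replicate 1 and 513 in replicate 2, a median of 6 and 7 per open member against 6 and 6 over all open genes. Ndufa4, now known as a cytochrome c oxidase subunit, had 13 and 15 footprints, the core subunit Ndufs7 had 14 and 9, and Uqcrq had 11 and 13. Footprint numbers differed with height mainly at the low end. When open genes were cut into 4 equal classes by height, the 4 members of the lowest class had a median of 0 in both animals, against 2 and 3 over all genes of that class, while those of the highest class had 7 and 7, against 8 and 8 over all genes of that class. Of the members' footprints in replicate 1, 68.8% overlapped a footprint of replicate 2, and of those in replicate 2, 65.5% overlapped one of replicate 1, against 63.7% and 60.6% over all genes. The footprints themselves were 13 and 11 bp wide at the median, against 12 and 10 bp over all genes.

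NRF1 matches lay under footprints at nearly all members that had one. A match stood in the window of 24 of 82 members (29.3%), against 12.9% of all genes. All 24 were open, which makes 32.4% of open members, against 19.9% of open genes. At 23 of the 24 (95.8%) a match shared at least 1 bp with a footprint in both animals, against 70.2% of open genes with a match. The exception was Ndufs7, where the match was under a footprint of replicate 1 only. Counted by match, 33 of 40 (82.5%) lay under a footprint in both animals, against 70.2% of 3635 matches at all open genes. A palindromic stretch gives an overlapping match on each strand and counts as 2 matches, which does not change the count of genes.

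The footprinted NRF1 matches were spread over the complexes: 10 members of complex I, 2 of complex II, 2 of complex III, 2 of complex IV and 7 of complex V. In complex V these were Atp5c1, Atp5g3, Atp5h, Atp5k, Atp5l, Atp5mpl and Atp5o, so subunits of the rotor and of the stator were among them. Complex I gave 9 accessory subunits (Ndufa5, Ndufa6, Ndufa8, Ndufa11, Ndufb4, Ndufb7, Ndufb10, Ndufs5 and Ndufs6) and the core subunit Ndufs8. Sdha and Sdhd, Uqcrc1 and Uqcr11, and Cox6a1 and Cox6c were the members of complexes II, III and IV. Of the 33 footprinted matches 24 lay within 100 bp of the 5′ end, with a median of 17 bp downstream and a range of −237 to 301 bp. Positions of matches over all genes are not given, for NRF1 or for ETS. At Ndufa8, an accessory subunit with disulfide bonds, matches centred 43 and 63 bp downstream lay under a single footprint of 40 bp in each animal. Ndufb4 had 3 footprinted matches and Cox6a1 had 3. At Ndufb7 the match 275 bp downstream was under a footprint of 12 bp and of 15 bp but outside the called peak in both animals.

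The ETS core was counted in the same way. A match stood in the window of 27 of 82 members (32.9%), against 19.5% of all genes, and of open members 36.5% had one, against 28.4% of open genes. At 13 of the 27 (48.1%) a match lay under a footprint in both animals, against 37.0% of open genes with a match. By match this was 14 of 33 (42.4%), against 32.6% of 4727 matches at all open genes. The members were Ndufb9, Ndufs1, Ndufs3 and Ndufs8 of complex I, Sdhb of complex II and Uqcrh of complex III. Complex IV gave Cox4i1, Cox6a1, Cox6b1 and Cox8a, and complex V gave Atp5a1, Atp5k and Atp5l. Of the 14 footprinted matches 12 lay within 100 bp of the 5′ end, at a median of 33.5 bp downstream. Counts of both motifs depended on the letters: with the middle bases fixed NRF1 was footprinted at 11 members, and ETS was footprinted at 3 with a longer core and at 20 with a shorter one. The 4 partners of restricted isoforms with an ETS match (Cox4i1, Cox6a1, Cox6b1 and Cox8a) had it under a footprint in both animals. Of the 8 restricted isoforms only 1, Cox6b2, had an ETS match, and it was not under a footprint in both animals. With 1 match the 2 groups cannot be compared in footprinting.

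Both motifs were footprinted in both animals at 4 members (Ndufs8, Cox6a1, Atp5k and Atp5l), NRF1 alone at 19, ETS alone at 9 and neither at 50. Of these 50, 42 were open in both animals. The same counts over all genes are not given. The 23 members with a footprinted NRF1 match had median heights of 8.53 and 5.13, the 13 with a footprinted ETS match 6.62 and 4.59, and the 42 open members with neither 7.67 and 5.23. The 4 members with both motifs stand in both of the motif classes. The highest members of all, Ndufv3, Ndufa7, Ndufb5 and Uqcrq, had no footprinted match of either kind in both animals.

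**Figure D4:**
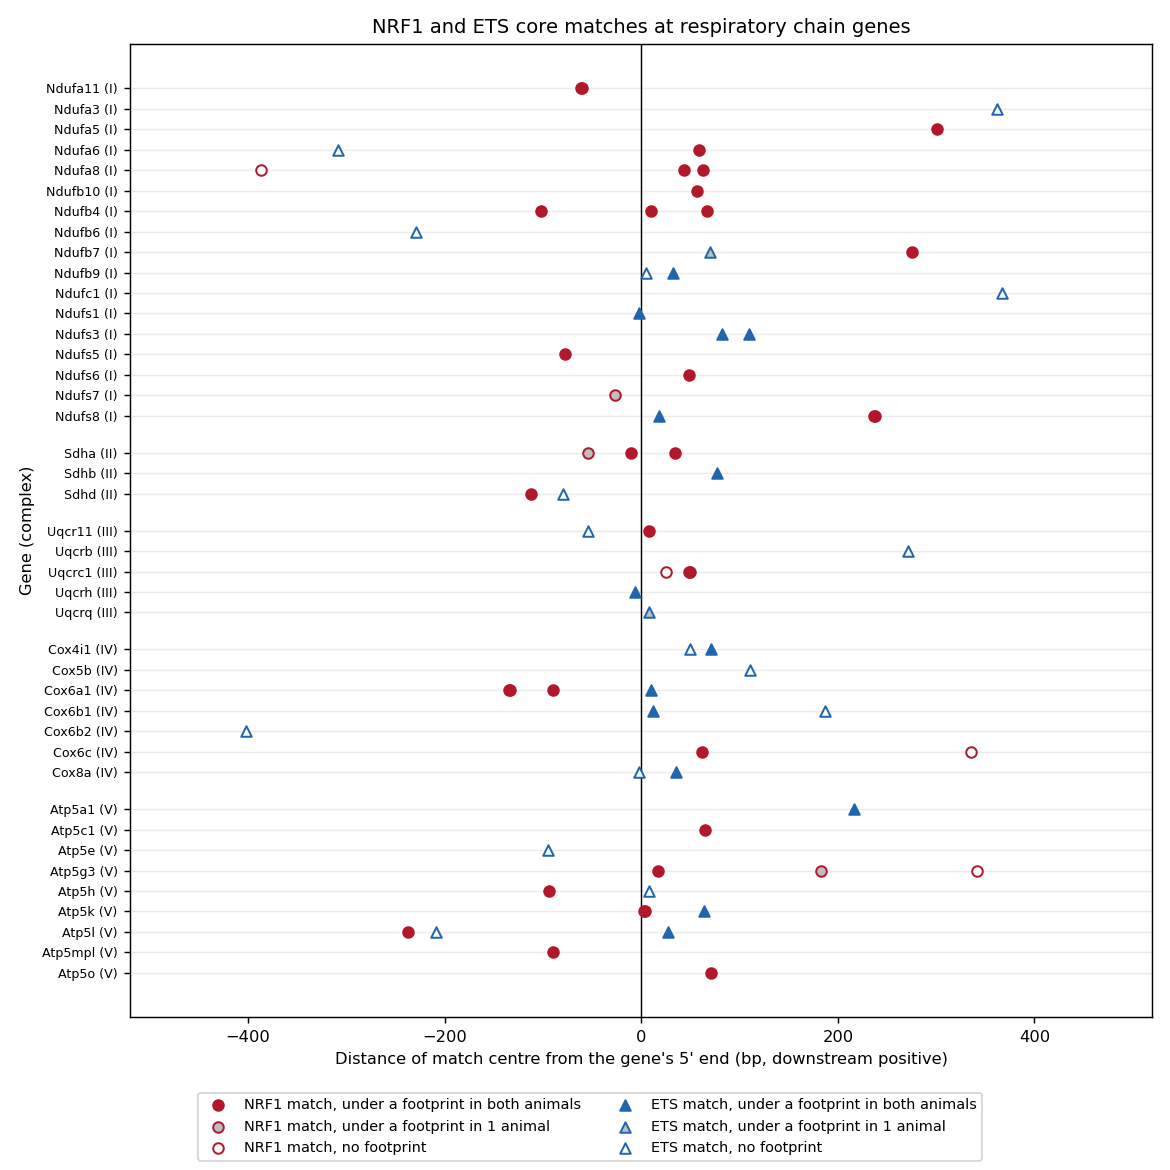
Distance of each NRF1 (circles) and ETS (triangles) match from the 5′ end of its gene (x axis, bp, downstream positive) for members with a match, grouped by complex (y axis). Colour-filled symbols lie under a footprint in both animals, grey ones in 1 animal and open ones in none; 24 of 33 filled circles and 12 of 14 filled triangles are within 100 bp of the 5′ end.

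The related lists carried these motifs too. An NRF1 match stood at 34.6% of mitochondrial ribosomal protein genes, above the 29.3% of members, and at 20.8% of cytosolic ones. Among open genes the shares were 36.5% and 22.1%, against 32.4% of open members. NRF1 was footprinted at 21 of 27 matched and open mitochondrial ribosomal protein genes (77.8%) and at 14 of 15 cytosolic ribosomal protein genes (93.3%). ETS was matched at 42 of 78 mitochondrial ribosomal protein genes (53.8%) and 31 of 72 cytosolic ones (43.1%), and footprinted at 23 and 13. Among 32 assembly factor genes, whose products build the complexes, 30 were open in both animals, with median heights of 7.05 and 4.96, and 17 had an ETS match. Of 13 genes of mitochondrial DNA upkeep and transcription 12 were open. Tfam, the packaging and transcription factor of that DNA, had 9.0 and 5.60 with a footprinted ETS match.

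The genes for the regulators themselves were mostly open. Esrra, which encodes the estrogen-related receptor alpha, had 22.7 in replicate 1 and 11.1 in replicate 2. Yy1 had 12.8 and 6.61, Gabpa, the DNA-binding subunit of GABP, had 6.28 and 3.65, and Nrf1 had 6.05 and 4.55. Ppargc1a, the coactivator PGC-1 alpha, had 0.371 in replicate 1 and no peak in replicate 2 at the 5′ end, while its relative Ppargc1b had 3.70 and 2.79. With any annotated start of a protein-coding transcript, all 8 regulator genes were open in both animals, Ppargc1a among them, against 65.7% of all genes.

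Other motifs were searched in the same way on both strands. The YY1 core AAGATGGC was present at 21 of 82 members (25.6%), against 7.54% of all genes, and at 27.0% of open members, against 9.20% of open genes. Open mitochondrial and cytosolic ribosomal protein genes had it at 20.3% and 20.6%, so the excess was not particular to members. The YY1 core was footprinted in both animals at 4 of 20 open members with a match, against 23.1% of open genes with a match. Of its 23 matches at members, 15 lay downstream of the 5′ end on the strand of the gene. The share over all genes is not given. The short element TCAAGGTCA of estrogen-related receptors was present at 8 members (9.76%), against 1.84% of all genes, and at 10.8% of open members, against 1.46% of open genes. None of these 8 (Atp5b, Atp5g3, Atp5o, Cox6c, Ndufa2, Ndufb4, Ndufv2 and Sdhd) had it under a footprint in both animals, against 0.541% of open genes with a match. These 8 genes were named after their values were seen. Of the 9 matches to this element at members, 2 lay in a called peak in both animals. Their median position was 190 bp downstream of the 5′ end.

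Boxes found at promoters of many kinds gave mixed shares. The SP/KLF box GGGCGG was present at 71.6% of open members, against 85.1% of open genes, and was footprinted in both animals at 49.1% of those, against 60.0%. The CCAAT box, with the letters CCAAT, was present at 54.1%, against 66.1%, and footprinted at 22.5% of those, against 19.6%. The TATA box, with the letters TATAAA, was present at 24.3%, against 20.7%, and footprinted at 5.56% of those, against 5.96%. The cyclic AMP response element TGACGTCA was present at 6 members (8.11% of open members), against 4.70%, and footprinted at 3 of the 6, against 77.3%. Median CpG observed over expected was 0.727 at open members and 0.729 at open genes, and the median G and C content was 56.6% and 59.0%.

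**Figure D5:**
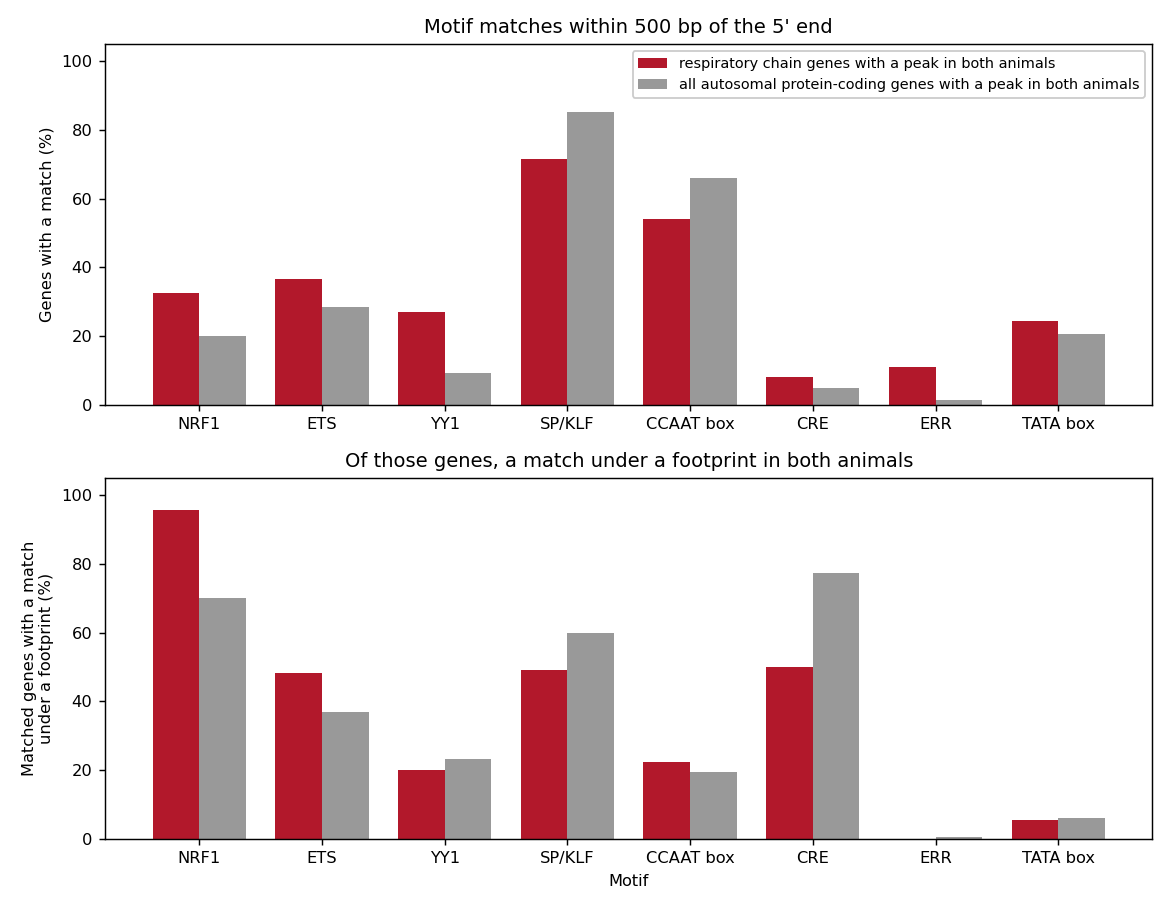
Percent of genes with a match within 500 bp of the 5′ end (upper panel, y axis) and percent of matched genes with a match under a footprint in both animals (lower panel, y axis) for 8 motifs, with respiratory chain genes left and all autosomal protein-coding genes right, both open in both animals. NRF1 reaches 32.4% against 19.9% and 95.8% against 70.2%, while the SP/KLF and CCAAT boxes are less frequent at members than over all genes.

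Many members stood head to head with another gene. A 5′ end of another protein-coding gene lay on the opposite strand within 500 bp at 25 of 82 members (30.5%), against 9.17% of all genes, and at 32.4% of open members, against 14.5% of open genes. Mitochondrial ribosomal protein genes had 25 of 78 and cytosolic ribosomal protein genes 14 of 72. Ndufs1 began 8 bp from Eef1b2, a translation elongation factor gene, and Ndufa7 10 bp from Rps28. Ndufs6 began 29 bp from Mrpl36, a mitochondrial ribosomal protein gene, and Sdhd 98 bp from Timm8b, a gene of mitochondrial protein import. At these 4 pairs the windows of both genes mostly overlap, and the height of a peak there cannot be assigned to either gene. The neighbours of these 4 pairs were chosen after their values were seen. Others nearer than Timm8b were not picked, among them Tatdn1, 18 bp from Ndufb9, Ccdc127, 29 bp from Sdha, and Morn5, 52 bp from Ndufa8.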

How the data were processed

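Peaks, footprints and the local cut rate came from DNase-seq of 2 animals, grouped by the tissue label as 1 group with 1 library per animal. The authors deposited, for each animal, a larger (117773 and 102671 peaks) and a smaller list of peaks whose height is a signal, footprints with a single q-value threshold (false discovery rate 0.01), and bases with the false discovery rate of the cut rate up to 0.05. Both were derived from the mm10 alignments of 1 animal at a time, per the deposited description of each sample. The sources used here name neither the scaling of the signal nor the aligner or caller. Read depth is therefore unknown, and no interval was computed.

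The larger list was used. The height of a gene was that of the highest peak sharing at least 1 bp with 500 bp on either side of its most upstream annotated start (GENCODE M21). A gene with such a peak was called open. A motif match was footprinted when it shared at least 1 bp with a footprint. Sequence came from the RefSeq copy of GRCm38, whose chromosome lengths match those of mm10, through pysam 0.24.0 and samtools 1.23.1. Intervals were handled with bedtools 2.31.1, figures with matplotlib 3.10.9, and tables with pandas 2.3.3, numpy 2.4.6 and scipy 1.17.1 under Python 3.11.15. The counting of overlaps and motifs was tested on simulated intervals and sequences. Motifs were read from the reference, so CAST variants were not examined.

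Members, gene lists, motifs and alternatives were chosen with earlier results of these data known. Genes were named when they lacked a peak in an animal, were the 2 highest or the lowest of a complex, belonged to a fixed set of subunits and isoforms, differed most between the animals, had a footprinted NRF1 or ETS match, or had the most footprints. Alternatives covered the window, peak list, start, overlap, motif letters and each animal left out. No test was run. The values of 1 member, which is counted in the totals, are not reported here.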

Additional observations from a re-analysis of the deposited data

How the results depend on the processing

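The share of members with a peak, 90.9% over both animals, was 87.8% with a window of 250 bp, 92.7% with 1000 bp, 87.8% with the smaller peak list, 89.0% with the higher 50% of the peaks, 92.1% with any annotated start and 89.0% when at least 50% of the peak had to lie in the window. The difference between the animals kept its sign under each alternative run for it, and was −0.088 on the log2 scale with any annotated start and −0.097 with the mean of all peaks in the window. Footprints per open member fell to 5.5 with 250 bp and to 4.5 when they had to lie wholly inside the window and a peak. NRF1 was footprinted at 11 members when the middle bases of the core were fixed. ETS was matched at 4 members with a longer core and 45 with a shorter one, and footprinted at 3 and 20, and at 7 when the match had to lie wholly inside a footprint. The cause of these moves was not tested, apart from the fewer or more letters fixed in a core. With 1 animal left out, members with a peak ranged from 74 to 75, footprinted NRF1 matches from 23 to 24 members, and footprinted ETS matches were at 14 members with either animal, against 13 in both: Uqcrq had one in replicate 1 only and Ndufb7 in replicate 2 only. No paired analysis was possible because both animals belong to 1 group and no test was run.

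Heights rest on 1 library per animal, and depth and the scaling of heights are unknown. A gene that uses an inner start is listed as low or without a peak: with any annotated start the mean heights were 6.99 for Atp5d and 5.01 for Cox7a2l, and Atp5g2 had 11.4 and 6.07 there. A named height was counted as moved when its mean changed by at least the SD of the 2 animals. By this rule 1 to 4 of the named heights moved under each setting other than leaving out an animal. Leaving out 1 of 2 animals always shifts the mean by less than that SD, so this setting could not show a move. With 1000 bp Atp5f1 had 7.36 and Ndufa13 10.6. With the smaller list Ndufa4l2 had no peak.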
